A study of Mus musculus with 246 samples.

Results

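The nuclear genes of oxidative phosphorylation were followed in RNA from 6 brain regions of 41 male mice. Genes were taken by name, as those whose symbol starts like the subunits of complex I (Nduf), complex III (Uqcr), complex IV (Cox) and the ATP synthase (Atp5), plus Sdha, Sdhb, Sdhc and Sdhd of complex II. Of the symbols that matched, 89 had a summed estimated count of at least 1000 over all libraries and are the members, out of 56691 genes in the table, and 14 fell below that limit. Of these, 82 are protein-coding in the annotation used and could be tested, and 7 are not (Ndufa12-ps, Ndufb1, Ndufb4c, Ndufs5-ps, Cox6c2, Cox7c-ps1 and Atp5pb-ps). Just inside the limit were Ndufs5-ps with a summed count of 1424 and Cox8b with 1655. Just outside were Ndufs6b with 492 and Uqcrh-ps1 with 445. A second entry of the symbol Atp5o, with a summed count of 233, also fell outside. The name rule does not take Cox4i1, Cox4i2, Cyc1, Cycs and Ndufab1, which were followed as a list of their own.

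All mice were outbred CD1 males and none carried a transgene or deletion. Ctrl_Veh mice grew up with standard bedding and nesting material, and their dams received an empty phospholipid gel at P02. ELA_Veh mice had limited bedding and nesting from P02 to P09 (early life adversity, ELA) and dams with the same empty gel, and ELA_SAFit2 mice had the same adversity and dams given gel with SAFit2, an inhibitor of the co-chaperone FKBP51, which reached the pups through the milk. The NoInteraction set held 7 mice per group, and the SocialInteraction set, taken after 10 min with a social partner, held 6 Ctrl_Veh, 7 ELA_Veh and 7 ELA_SAFit2 mice. Each mouse gave 1 library from each of 6 regions: DMT (dorsomedial thalamus), vHipp (ventral hippocampus), BLA (basolateral amygdala), mPFC (medial prefrontal cortex), Nacc (nucleus accumbens, shell) and ACC (anterior cingulate cortex). SAFit2 without adversity was not among the groups, the dam and not the pup was injected, and litters are not given in the labels, so pups of 1 litter cannot be told apart from independent mice.

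Oxidative phosphorylation makes most of the ATP of a neuron. Complexes I and II pass electrons from NADH and succinate to ubiquinone, complex III passes them on to cytochrome c, and complex IV, cytochrome c oxidase, hands them to oxygen, while complexes I, III and IV pump the protons that drive the ATP synthase, complex V. Mitochondrial DNA encodes 13 subunits of complexes I, III, IV and V, and nuclear genes encode the remaining subunits, all of complex II included. Several complex IV subunits exist in isoforms, with one form used in most tissues and another known from heart, skeletal muscle or brown fat. In promoters of respiratory genes, binding sequences of NRF1 and of the ETS factor GABP (NRF2) are the classical shared elements.

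Upstream sequence is shown for members the results turn on or contrast with, to let the shared elements be seen beside genes that lack them. RefSeq windows (the promoter up to and just past the start, GRCm38.p6) were at hand for 68 of the 82 tested members. The NRF1 letters GCGCATGC and the ETS letters CCGGAAG were searched on both strands. NRF1 letters were in 10 of these windows (14.7%) against 2.8% of 27025 gene promoters, and ETS letters in 16 (23.5%) against 9.1%. Both were in 5 members (7.4%) against 0.5%, and 47 members (69.1%) held neither, against 88.6% of promoters. In the 150 bases before the start, given below 5′ to 3′ on the gene's strand with matched letters in capitals, Cox6a1 (chr5:115348959-115349108, minus strand) holds 1 ETS copy and Sdhb (chr4:140961121-140961270, plus strand) holds 1 NRF1 copy. Cox5a (chr9:57521082-57521231, plus strand), the member that differed between conditions, and Cox8b (chr7:140900447-140900596, minus strand), a complex IV isoform gene, hold neither. Over the whole window searched, Cox6a1 holds 2 NRF1 copies and 1 ETS copy, and Sdhb holds 1 of each. Cox5a and Cox8b hold neither there too. These matches are descriptions of the letters and say nothing about binding.
Cox6a1: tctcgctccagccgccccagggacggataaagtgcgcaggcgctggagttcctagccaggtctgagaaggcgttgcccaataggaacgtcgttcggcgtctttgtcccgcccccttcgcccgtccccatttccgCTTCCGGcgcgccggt
Sdhb: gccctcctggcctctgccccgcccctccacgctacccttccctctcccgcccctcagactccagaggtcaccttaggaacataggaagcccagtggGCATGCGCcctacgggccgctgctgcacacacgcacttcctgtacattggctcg
Cox5a: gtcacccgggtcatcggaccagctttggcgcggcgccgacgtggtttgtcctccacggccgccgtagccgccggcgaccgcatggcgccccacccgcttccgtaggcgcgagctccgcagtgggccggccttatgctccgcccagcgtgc
Cox8b: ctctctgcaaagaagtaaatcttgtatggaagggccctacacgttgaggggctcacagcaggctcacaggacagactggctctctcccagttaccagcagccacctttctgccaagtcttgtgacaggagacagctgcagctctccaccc

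Libraries held 20804247 to 43351424 counts, of which the members took 0.64% to 1.14%. In 3 libraries the deviations of genes from their region followed transcript length far more than elsewhere (Spearman's rho of −0.639 in an ACC library of ELA_Veh without interaction, −0.727 in an ACC library of Ctrl_Veh after interaction and −0.68 in a DMT library of ELA_SAFit2 after interaction, against −0.436 to 0.3 in all others). Short transcripts were high in these 3, and most members are short. By genes that vary between mice, 12 of the 41 Nacc libraries and 1 ACC library matched another mouse than the one in their label, with the matching mouse of all 12 in another group and that of 7 in another condition. The group labels of these Nacc libraries are therefore in doubt, and with them every Nacc value by condition or set and every sum or mean over regions that holds Nacc. Region markers were in place: thalamus markers summed to 1837 to 2887 CPM (counts per 1e6) in DMT and at most 731.3 elsewhere, and striatum markers to 969 to 3679 in Nacc, but also to 397 to 2770 in BLA, so these ranges overlap. CPM set beside other regions were scaled over all libraries together, and CPM compared between conditions within the region. In these bulk punches a smaller share of a cell type and less RNA per cell cannot be told apart.

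Per kilobase of transcript, the scale on which genes can be set beside each other, the complexes differed less than their members. The median level over all libraries was 142 CPM per kb for 15 complex V members, 129 for 8 of complex III, 111.1 for 15 of complex IV, 82.5 for 4 of complex II and 76.5 for 37 of complex I. The most abundant was Atp5b, the catalytic beta subunit of the ATP synthase, at 452 CPM per kb. It was followed by Uqcrc1, a core protein of complex III, at 324, by Ndufa4, a small subunit found with complex IV, at 298, and by Cox8a, the common form of the smallest complex IV subunits, at 292. At the low end lay the alternative isoforms Cox7a1 (1.62 CPM per kb), Cox7b2 (0.667) and Cox8b (0.663). Lengths were medians over annotated transcripts, so genes with many short annotated transcripts are placed too high. The length was 533 bases over 4 transcripts for Uqcrc1 and 1916 bases over 1 for Atp5b, so the ranks rest on these lengths.

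The regions differed more than any condition did. A member was called for a region where the adjusted p was under 0.05 and the log2 difference from the mean of the other 5 regions at least 0.5 in size (edgeR's quasi-likelihood test with the mouse as a block, 82 members tested). There were 17 such calls, and 16 of them were of complex IV isoform genes. These were Cox6a2, Cox7a1, Cox7b2, Cox8b and Cox6b2, each called in more than 1 region. A gene very high in 1 region raises the mean that each other region is set against. Lower calls of such a gene therefore need not mark a separate low region. In DMT, 4 members were called higher (17.9% of all 17381 genes tested) and 0 lower (17.7%). In BLA, 2 were higher (12.7%) and 1 was lower (5.51%). In vHipp, 0 were higher (11.6%) and 2 lower (12.6%). In mPFC, 0 were higher (8.81%) and 4 lower (10.4%), in ACC 0 were higher (8.56%) and 3 lower (10.7%), and in Nacc 0 were higher (10.2%) and 1 lower (11.1%). The members were thus called in a smaller share than genes at large in each region and direction.

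**Figure D1:**
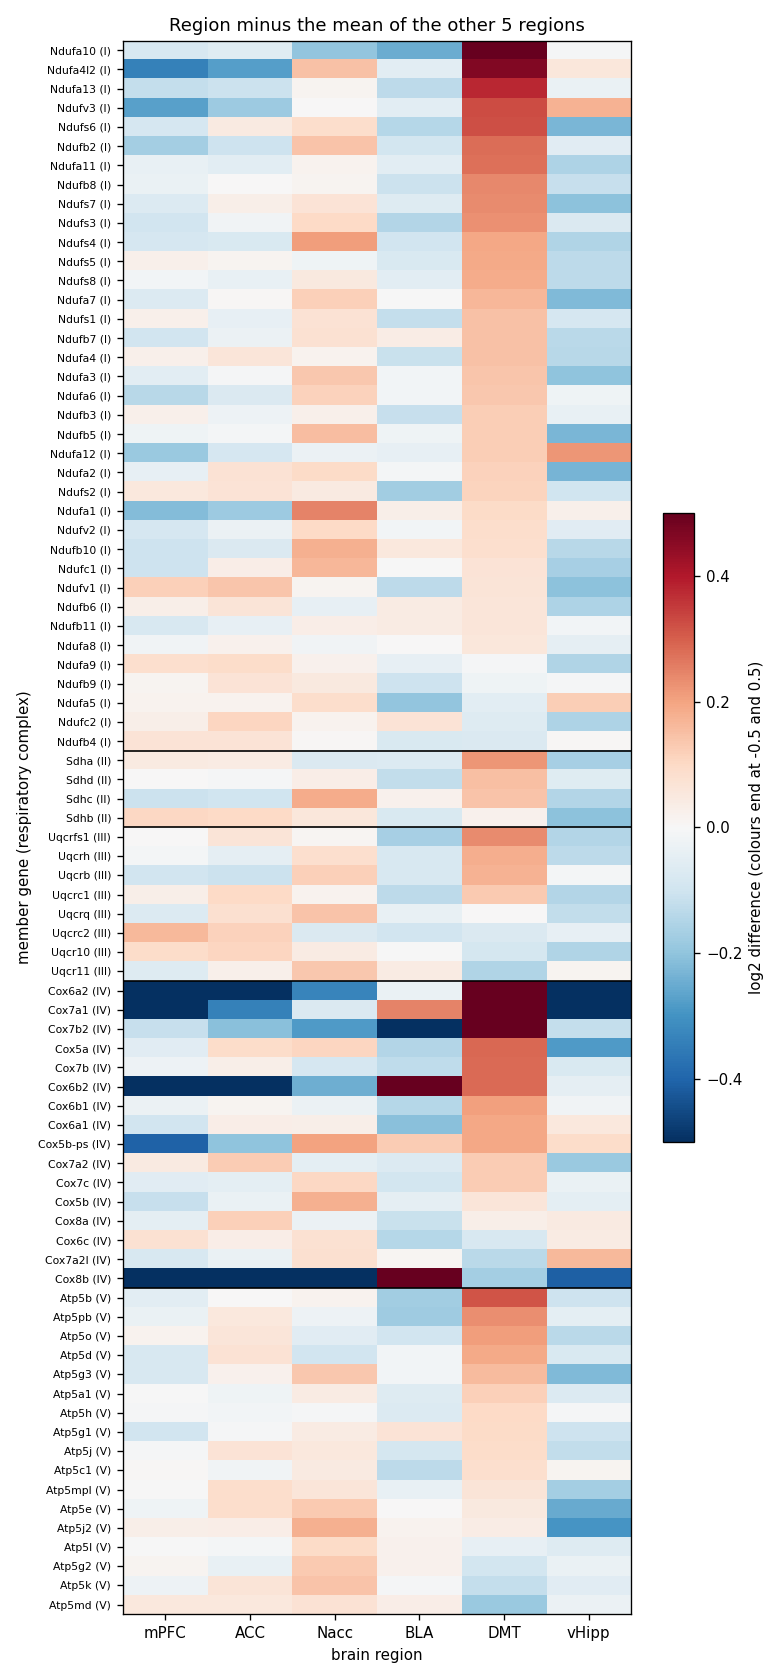
Log2 difference of each of the 82 tested members (rows, by respiratory complex) in each region from the mean of the other 5 regions, with colours ending at −0.5 and 0.5. Most rows are red in DMT, with a median of 0.125, and blue in vHipp, with a median of −0.103, and the strongest colours are in complex IV rows.

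Below the size limit, the members shifted by region in small steps. In DMT, 63 of 82 members passed the adjusted threshold upwards, against 42.7% of all genes, and 12 passed it downwards, against 43.7%, with a median log2 difference of 0.125 for the members and −0.008 for all genes. In Nacc, 48 passed upwards (39.6% of all genes) and 12 downwards (38.7%), with a median of 0.046. In vHipp, 57 passed downwards (40.9%) and 7 upwards (38.3%), with a median of −0.103. In BLA, 47 passed downwards (35.9%) and 11 upwards (39.3%) with a median of −0.059, in mPFC 39 passed downwards (37.9%) and 13 upwards (37.1%) with a median of −0.036, and in ACC 28 passed downwards (40.5%) and 29 upwards (35.4%) with a median of 0.003. The heat map of region differences shows members of every complex that rose in DMT and, in complexes I, III, IV and V, a few that fell.

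Within DMT, members of every complex rose. Of 37 complex I members, 32 rose and 3 fell, with a median log2 difference of 0.136. Ndufs1, the large iron-sulfur subunit, had CPM of 135 to 161 with a median of 148 in DMT and 117 to 147 with a median of 130 in vHipp. Its log2 difference in DMT was 0.15 (SE 0.01, adjusted p = 2.01e-31 by edgeR's quasi-likelihood test). Ndufv1, which binds NADH and FMN, rose by only 0.06 in DMT, and was lower by −0.21 in vHipp (edgeR adjusted p = 7.75e-33). Ndufb8 rose by 0.24 and Ndufa4 by 0.15 in DMT, and both were lower in vHipp, by −0.11 and −0.14.

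Ndufa10, an accessory subunit of complex I, was the only complex I member called in DMT. It stood at 142 to 213 CPM with a median of 179 there and at a median of 109 to 126 in the other 5 regions, with a log2 difference of 0.59 (SE 0.01, edgeR adjusted p = 2.53e-102). All 41 DMT libraries lay above every mPFC, Nacc, BLA and vHipp library, and 34 lay above every ACC library. Across DMT libraries its level went with the summed thalamus markers (r = 0.70 over 40 libraries, all from the same punch series). It went against the summed skeletal and cardiac muscle markers (r = −0.73) and the striatum markers (r = −0.41). The other marker lists set beside it had r of −0.21 to 0.38. The part of these markers in the result was not tested. Ndufa4l2, a relative of Ndufa4, had a log2 difference of 0.46 in DMT from a low level, at a median of 2.27 CPM.

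Complexes II and III were less even. Sdha, the flavoprotein that oxidises succinate, ranged from 396 to 447 CPM in DMT and from 288 to 364 CPM in vHipp, so that these regions did not overlap. Its log2 difference was 0.22 (SE 0.01) in DMT and −0.17 in vHipp, both past the threshold. Sdhb, the iron-sulfur subunit whose promoter is printed above, did not pass it in DMT (0.02, edgeR adjusted p = 0.092) and was lower by −0.21 in vHipp. In complex III, Uqcrb (0.17), Uqcrh (0.18) and Uqcrc1 (0.13) rose in DMT, while Uqcrc2, the other core protein, was lower there, by −0.07. Uqcrc2 was also lower in BLA (−0.10), Nacc (−0.07) and vHipp (−0.04).

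In complex V, Atp5b showed the clearest step. It ranged from 948 to 1176 CPM with a median of 1037 in DMT, against medians of 785 to 877 in the other 5 regions, and its log2 difference was 0.31 (SE 0.01, edgeR adjusted p = 1.07e-68). Atp5a1, the alpha subunit, rose by 0.12. Of the 3 genes for the identical c subunit of the rotor, Atp5g1 (0.10) and Atp5g3 (0.16) were higher in DMT and Atp5g2 lower, by −0.09. All 3 rose in Nacc, and in vHipp Atp5g3 was lower by −0.22.

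Complex IV held the largest contrasts between regions, and they lay in the alternative isoforms. Cox6a2, the heart and muscle form of subunit VIa, stood at 1.14 to 24.1 CPM with a median of 11.3 in DMT. Its medians were 1.37 in mPFC, 1.39 in ACC, 1.44 in Nacc, 1.86 in BLA and 0.783 in vHipp. Its log2 difference was 3.11 in DMT (SE 0.04, edgeR adjusted p = 1.13e-143) and −1.59 in vHipp (SE 0.08), with smaller calls in ACC (−0.59) and mPFC (−0.57). The lower calls were made against a mean that holds DMT, and the ACC and mPFC medians lay near that of Nacc. Of the 41 DMT libraries, 38 to 40 lay above the highest library of each other region. Cox6a1, the form used in most tissues, had a log2 difference of 0.19 in DMT, at a median of 176 CPM.

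Cox7a1, the heart form of subunit VIIa, followed Cox6a2 at a lower level. It ranged from 1.09 to 2.28 CPM in DMT with a median of 1.59, against medians of 0.403 in vHipp, 0.414 in mPFC and 0.763 in BLA. The log2 difference was 1.65 in DMT (SE 0.06), −0.80 in mPFC and −0.69 in vHipp, all called. Cox7c, a small subunit with no alternative form among the members, rose by 0.13 in DMT and 0.11 in Nacc. Cox7a2, the common form, rose by 0.13 in DMT and Cox7a2l, a related gene whose product helps complexes III and IV to associate, was lower there by −0.14 and higher in vHipp by 0.16. Cox7b2, an isoform gene of subunit VIIb known from testis, was called higher in DMT (1.23, SE 0.07), at 0.233 to 1.27 CPM with a median of 0.694. It was called lower in BLA (−0.51), a call that ended without the 3 libraries above, at −0.50 and just inside the size limit. Markers of skeletal and cardiac muscle summed to a median of 5.78 CPM in DMT, the lowest of the 6 medians, and to one of 46.3 CPM in BLA.

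**Figure D2:**
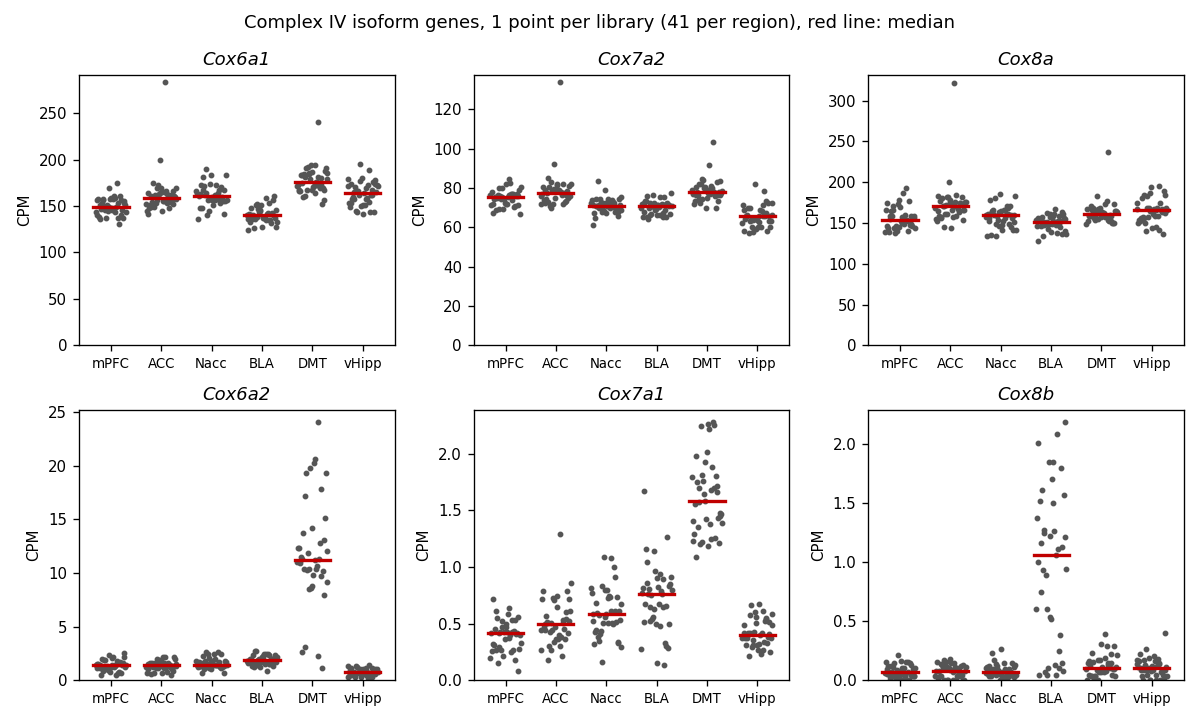
CPM of 3 common (top) and 3 alternative (bottom) complex IV isoform genes, 1 point per library with 41 per region and the median as a red line. Cox6a2 and Cox7a1 are highest in DMT with medians of 11.3 and 1.59, Cox8b in BLA with a median of 1.06, and the common forms lie close together over all regions.

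Cox8b and Cox6b2 were high in BLA instead. Cox8b, the form of subunit VIII known from muscle and brown fat, ranged from 0.0424 to 2.18 CPM in BLA with a median of 1.06, while its median in other regions was at most 0.0994 and 2 to 8 libraries of each had a count of 0. The log2 difference was 3.36 in BLA (SE 0.11, edgeR adjusted p = 1.2e-91), −1.01 in mPFC, −0.90 in ACC and −0.87 in Nacc, where the values rest on a few reads per library. The lower values were likewise set against a mean that holds BLA. Cox6b2, the testis form of subunit VIb, ranged from 0.468 to 4.94 CPM in BLA with a median of 2.73, with a log2 difference of 1.37 (SE 0.07) there, −0.73 in mPFC and −0.63 in ACC. Cox8a and Cox6b1, their common counterparts, had medians in BLA of 152 and 106 CPM, the lowest of the 6 regions for both, against 154 to 170.5 and 114 to 128 elsewhere.

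Choroid plexus markers moved with both genes. The 6 markers (Ttr, Kl, Folr1, Kcnj13, Otx2 and Cldn2) summed to 7.42 to 5625 CPM in BLA libraries, with a median of 2608, and to at most 1365 in DMT, 287 in vHipp and 11.1 in the remaining regions, and all 6 were higher in BLA than in the mean of the other regions. Over the 41 BLA libraries, on log2 scales, the sum correlated with Cox8b (r = 0.90) and with Cox6b2 (r = 0.87), and single markers did so at 0.86 to 0.96 and 0.83 to 0.92. In the 9 BLA libraries below 200 CPM of these markers, a limit set after the values were seen, Cox8b was at 0.0424 to 0.144 CPM, inside the 0 to 0.4 CPM of the other 5 regions. In the other 32 it was at 0.248 to 2.18. Cox6b2 was at 0.468 to 1.30 CPM in those 9 libraries and at 0.746 to 4.94 in the 32. Cox8a showed no such split, with medians of 152 CPM in both sets of libraries. Other marker lists also went with Cox8b in BLA: parvalbumin interneuron (r = −0.81), striatum (−0.67) and cortex and amygdala glutamatergic markers (0.56). For Cox6b2 these were −0.79, −0.57 and 0.49. The remaining lists had r of −0.44 to 0.40 with either gene. The part of choroid plexus or other tissue in these values was not tested.

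The number of calls between regions was 17 with the mouse as a block and 17 without that replicate block. It was also 17 with other size factors or with the 12 doubtful Nacc libraries left out, and 16 without the 3 libraries above.

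The conditions were compared first on the 6 libraries of a mouse added together. The question was whether adversity, or SAFit2 after adversity, left a lasting shift in the nuclear respiratory genes. Over 12 contrasts and 82 members, 0 of 984 gene tests passed an adjusted p of 0.05 (edgeR's quasi-likelihood test), against 0.00288% of all gene tests, and 34 had an unadjusted p under 0.05 (3.46% of the members' tests and 4.82% of all). DESeq2 also called 0. The smallest adjusted p of a member was 0.273.

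Medians over the members lay between −0.024 and 0.031 on the log2 scale. For ELA_SAFit2 against Ctrl_Veh over both sets the median was −0.009 with 58 of 82 below 0, for ELA_SAFit2 against ELA_Veh it was −0.011 with 69 below 0, and for ELA_Veh against Ctrl_Veh it was 0.003 with 37 below 0. Medians over all genes in the 12 contrasts lay between −0.002 and 0.001. By set, ELA_Veh against Ctrl_Veh had a median of 0.031 without interaction, with 71 above 0, and of −0.024 after it, with 71 below 0, and without the 3 mice whose libraries stand apart these medians were 0.018 and 0.003. Single core members were as close: for ELA_SAFit2 against Ctrl_Veh, Ndufs1 had a log2 difference of −0.0047 (SE 0.014), Sdha one of 0.0065 (SE 0.014), Uqcrc1 one of −0.0004 (SE 0.017) and Atp5b one of −0.0039 (SE 0.014).

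**Figure D3:**
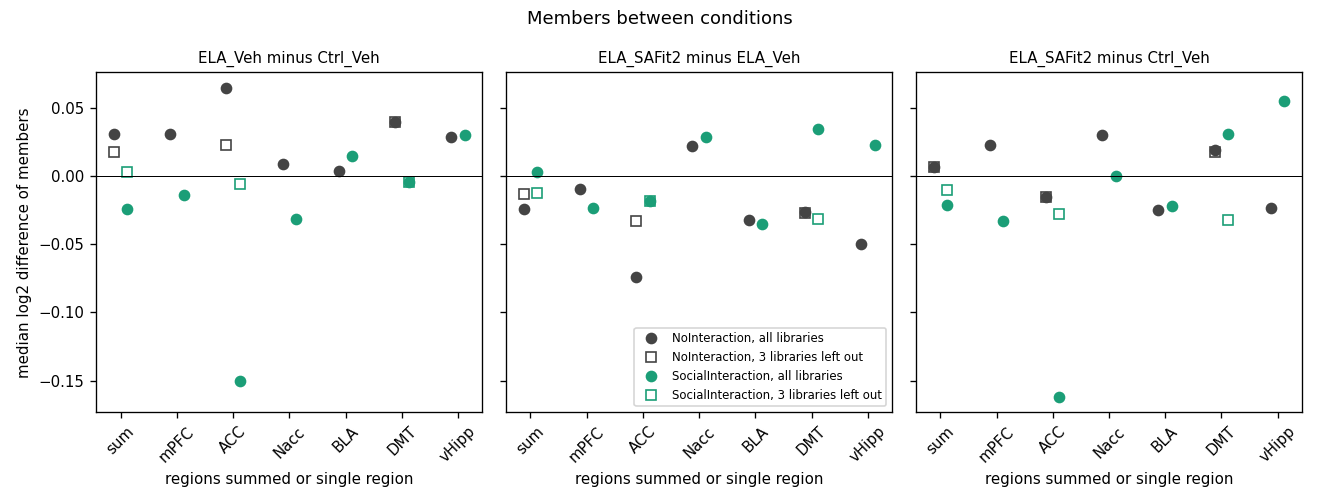
Median log2 difference over the tested members for 3 condition contrasts, with the regions summed and in each region, by set (grey without and green after social interaction) and with all libraries (filled) or without 3 libraries that stand apart (open squares). Medians lie between −0.074 and 0.065 except for ELA_Veh and ELA_SAFit2 against Ctrl_Veh in ACC after social interaction, where −0.150 and −0.162 become −0.006 and −0.028 without those libraries.

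Cox5a and Cox6c were the members with the smallest p in ELA_SAFit2 contrasts. Cox5a encodes subunit Va of complex IV, which faces the matrix, and Cox6c one of its small membrane subunits. For ELA_SAFit2 against Ctrl_Veh, Cox5a had a log2 difference of −0.12 (SE 0.03, edgeR adjusted p = 0.273) with the regions summed. For ELA_SAFit2 against ELA_Veh, Cox6c had −0.08 (SE 0.03, edgeR adjusted p = 0.468) and Cox5a −0.09 (adjusted p = 0.49). Ndufa8 followed for ELA_SAFit2 against Ctrl_Veh (−0.06) and Ndufa7 for ELA_SAFit2 against ELA_Veh (−0.06). For ELA_Veh against Ctrl_Veh the smallest p belonged to Cox6b2 (−0.22, SE 0.12), Atp5a1 (0.02) and Ndufv3 (−0.03), with adjusted p of 0.779 to 0.799. None of these passed the threshold.

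Region by region, Cox5a in mPFC was the only member called in a condition contrast, in 2 of 12 contrasts there, against 0.00167% of all gene tests over the 6 regions. In the NoInteraction set its level in mPFC was 80 to 92.3 CPM with a median of 81.2 in Ctrl_Veh, 75.7 to 86.3 with a median of 80.8 in ELA_Veh, and 71.4 to 84 with a median of 74.3 in ELA_SAFit2. After social interaction it was 84.2 to 97.2 with a median of 90.2 in Ctrl_Veh, 77.1 to 92.2 with a median of 84.9 in ELA_Veh, and 73.4 to 84.8 with a median of 78 in ELA_SAFit2. In each set, 6 of 7 ELA_SAFit2 mice lay below the lowest Ctrl_Veh mouse, while ELA_SAFit2 and ELA_Veh overlapped more, with 4 and 2 of 7 below the lowest ELA_Veh mouse.

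Cox5a in mPFC fell by 0.18 on the log2 scale in ELA_SAFit2 against Ctrl_Veh over both sets (SE 0.03, edgeR adjusted p = 0.00905, 0.00632% of all genes called lower). Against the mean of the other groups it fell by 0.15 (SE 0.03, edgeR adjusted p = 0.0203, 0.0126% of genes called lower). Against ELA_Veh alone the log2 difference was −0.12 (SE 0.03, edgeR adjusted p = 0.377) and between ELA_Veh and Ctrl_Veh it was −0.06 (SE 0.03), neither past the threshold. The ELA_SAFit2 and Ctrl_Veh contrasts share the Ctrl_Veh mice. By set, the log2 difference against Ctrl_Veh was −0.15 without and −0.21 after interaction, with exact permutation p of 0.00816 and 0.00233 (two-sided, smallest possible 0.000583 and 0.00117). Cox5a was taken for this test after its call on the same mice. Its permutation p, here, in ACC and over regions, are therefore unadjusted descriptions of mouse values and no separate support. The call against Ctrl_Veh was kept when each of 41 mice was left out in turn, at −0.194 to −0.169. The call against the mean of the other groups ended without mouse 15, 47 or 87 of the NoInteraction set or mouse 23 or 1 further mouse of the SocialInteraction set, each an ELA_SAFit2 mouse, at adjusted p of up to 0.0735.

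In ACC, Cox5a was lowest in ELA_SAFit2 in both sets, while Ctrl_Veh and ELA_Veh had like medians after interaction. Without interaction it was 85.7 to 96.5 CPM in Ctrl_Veh, 80.8 to 121 in ELA_Veh and 72 to 84.5 in ELA_SAFit2, so that all 7 ELA_SAFit2 mice lay below the Ctrl_Veh mice (exact permutation p = 0.000583, the smallest possible). After interaction, 6 of 7 lay below the lowest Ctrl_Veh mouse, with medians of 91.4 in Ctrl_Veh, 91.4 in ELA_Veh and 82.7 in ELA_SAFit2. Over both sets the log2 difference from the mean of the other groups was −0.22 (SE 0.06, edgeR adjusted p = 0.284), and without the 2 ACC libraries that stand apart it was −0.15 (SE 0.03, edgeR adjusted p = 0.0233). In BLA the difference against Ctrl_Veh was −0.12 (SE 0.05), in DMT −0.07, in Nacc −0.06 and in vHipp −0.02, none past the threshold. Averaged over regions per mouse, ELA_SAFit2 lay below Ctrl_Veh by −0.13 without and −0.10 after interaction (exact permutation p of 0.0146 and 0.0152) and below ELA_Veh by −0.11 and −0.07 (exact p of 0.0437 and 0.0402).

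**Figure D4:**
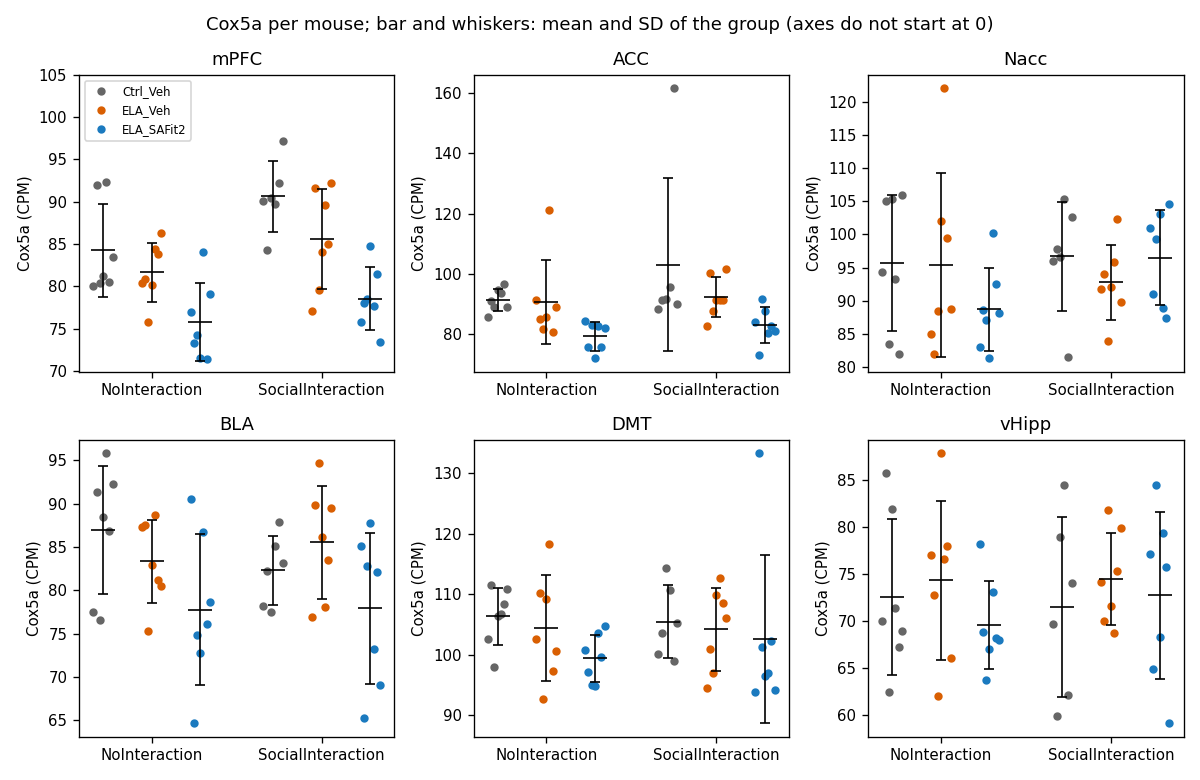
Cox5a in CPM for each mouse by region, set and condition, with the mean and SD of each group and axes that do not start at 0. In mPFC the ELA_SAFit2 mice lie at 71.4 to 84.8 and the Ctrl_Veh mice at 80 to 97.2, and the groups overlap widely in vHipp.

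In the same mPFC contrast of ELA_SAFit2 with Ctrl_Veh, 0 genes passed on any of the lists of cell type and region markers or ribosomal proteins. Medians lay between −0.12 and 0.157, among them the 8 pan-neuronal markers (median log2 difference −0.01), 8 parvalbumin interneuron markers (−0.01), 6 oligodendrocyte markers (−0.12), 6 astrocyte markers (0.08) and 8 mural cell markers (0.16). The relation with transcript length was centred near 0 in the mPFC groups, with median rho from −0.055 to 0.097. Of the other 80 members tested in mPFC, 0 passed. In this contrast only 1 of 15812 genes tested was called lower, so these counts of 0 say little. The part of cell types and of RNA quality in the Cox5a difference was not tested.

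In ACC after social interaction, many members were lower than in Ctrl_Veh and the count turned on 1 library. At an unadjusted p under 0.05, 52 of 81 members were lower in ELA_SAFit2 than in Ctrl_Veh (6.15% of all genes), with a median log2 difference of −0.162, and 35 were lower in ELA_Veh than in Ctrl_Veh (7.63% of all genes), with a median of −0.15. No member passed the adjusted threshold by edgeR or DESeq2. Without the libraries that stand apart the counts were 5 and 1 and the medians −0.028 and −0.006. The Ctrl_Veh library of mouse 89 alone moved both medians to these values. Its mean log2 deviation over the members was 0.645 and over cytosolic ribosomal protein genes 0.62.

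**Figure D5:**
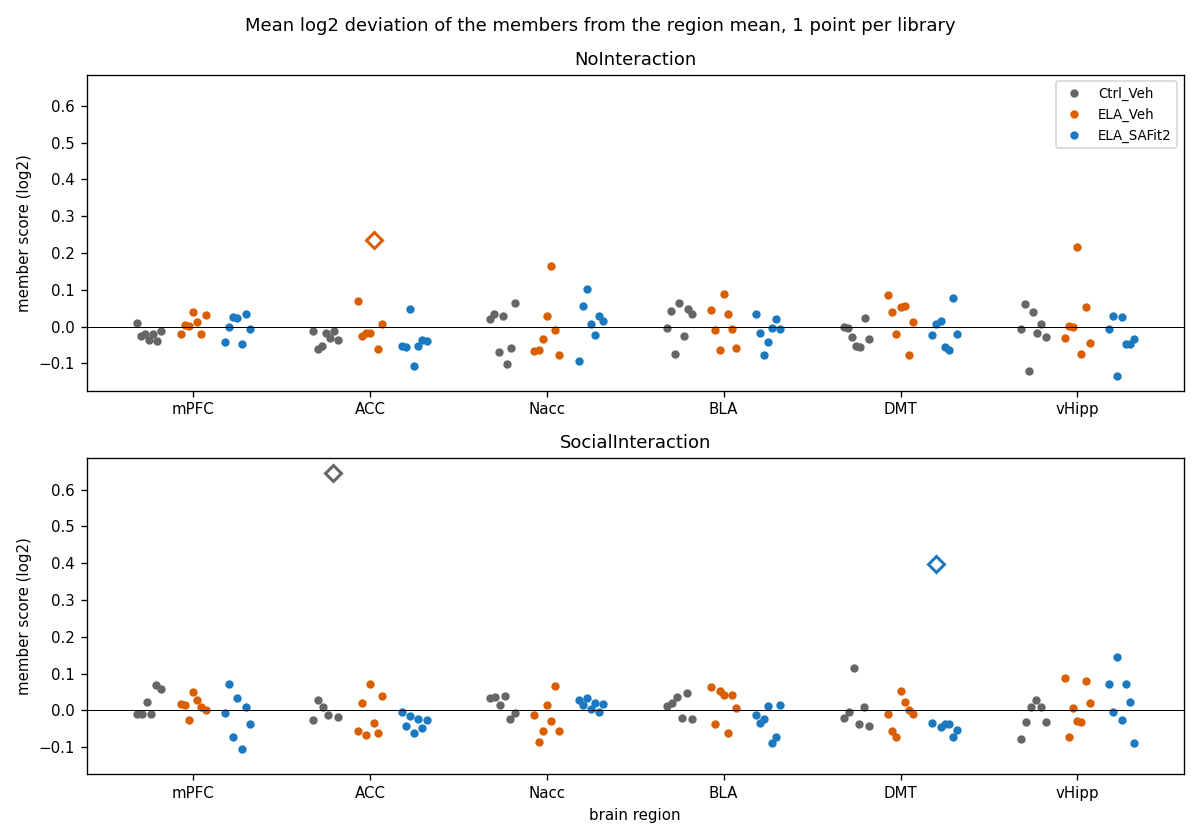
Mean log2 deviation of the members from the region mean, 1 point per library, by region, set (upper and lower panel) and condition. Open diamonds mark the 3 libraries whose deviations follow transcript length, at 0.237, 0.645 and 0.397, and the groups of a region overlap.

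The mean deviation of the members over a library, drawn in the plot of deviations by region, ranged from −0.135 to 0.216 in the remaining libraries. It went with the same mean over ribosomal protein genes in DMT (r = 0.69 over 40 libraries without the one that stands apart) and less in ACC (r = 0.34 over 39), mPFC (0.42) and vHipp (0.36). It went with the relation to transcript length in all regions, from r = −0.45 in mPFC to −0.86 in vHipp over 41 libraries each. These correlations are descriptions of libraries that share depth and handling within a region, and the part of RNA quality in them was not tested.

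For ELA_SAFit2 against ELA_Veh, no member passed the adjusted threshold in BLA or Nacc by edgeR or DESeq2. In BLA, 76 of 82 members lay below 0 for ELA_SAFit2 against ELA_Veh over both sets, with a median of −0.034, and 14 were lower at an unadjusted p under 0.05 (2.01% of all genes). Cox6c had the smallest p (−0.12, SE 0.03, edgeR adjusted p = 0.628), followed by Ndufa4 (−0.07) and Uqcrb (−0.08). In Nacc, 73 of 82 lay above 0 in the same contrast, with a median of 0.024, and 10 were higher at an unadjusted p under 0.05 (1.9% of all genes), or 5 of 81 with the 12 doubtful libraries left out. The group or the difference between the regions was not tested. In BLA the choroid plexus markers had medians of 956 CPM in ELA_Veh and 2241 in ELA_SAFit2 without interaction, and of 3617 and 481 after it. Over 41 libraries the mean deviation of the members went with thalamus (r = −0.49) and oligodendrocyte markers (0.47) in BLA, and with thalamus (0.62) and pan-neuronal markers (0.50) in Nacc, and their part in these values was not tested.

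Whether SAFit2 acted differently in the 2 sets was tested as a difference of differences. With the regions summed, 0 members passed (0.0403% of all genes), 2 had an unadjusted p under 0.05, and DESeq2 called 0. Within the regions 0 passed as well, with a smallest adjusted p of 0.514, in Nacc.

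After social contact of 10 min, 1 member passed the threshold. Ndufb2, an accessory subunit of the membrane arm of complex I, was at 28.3 to 34.1 CPM in mPFC with a median of 31.8 in the 21 mice of the NoInteraction set and at 30.1 to 36.7 with a median of 33.7 in the 20 mice after interaction, and the sets overlapped. It rose by 0.07 on the log2 scale with the regions summed (SE 0.02, edgeR adjusted p = 0.0155, 4.71% of all genes higher) and by 0.08 in mPFC (SE 0.02, edgeR adjusted p = 0.0334, 4.81% of all genes higher). The permutation p, two-sided with 100000 resamples, was 0.00124 for the mean over regions and 0.00146 in mPFC. Ndufb2 was likewise taken for this test after its call on the same mice, so these p are no separate support. In the other regions the log2 difference was 0.14 in ACC, 0.07 in BLA, 0.06 in vHipp, 0.05 in DMT and 0 in Nacc, none past the threshold. The call held without each mouse in turn for the summed regions, at 0.0636 to 0.0746, but in mPFC it was kept in only 25 of the 41 fits that left out 1 mouse.

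Of the 82 members, 66 lay above 0 after interaction with the regions summed, with a median of 0.014 against −0.001 for all genes, and 10 were higher at an unadjusted p under 0.05, against 11.4% of all genes. Sdhd, a membrane anchor of complex II (0.03, edgeR adjusted p = 0.0552), and Cox5b, a subunit of complex IV (0.07, edgeR adjusted p = 0.0701), came next to the threshold. Cox5a in mPFC had a log2 difference of 0.07 (edgeR adjusted p = 0.0631).

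The genes around the subunits were followed by list. In condition contrasts, 0 genes passed on any of the lists, in any region or with the regions summed: the 13 mitochondrially encoded subunits, the 5 subunits outside the name rule, 43 assembly factors, 13 enzymes of the tricarboxylic acid cycle and 10 regulators of mitochondrial biogenesis. After social interaction with the regions summed, 4.71% of all genes were called higher and 3.85% lower. Of 10 regulators 3 rose, namely Nrf1 (0.08), Gabpa (0.08) and Gabpb1 (0.08), the factors whose binding letters were searched above. The promoter window of Ndufb2 holds neither the NRF1 nor the ETS letters. A link between these factors and the members was not tested. Of the 43 assembly factors 6 rose (Ndufaf1, Ndufaf4, Cox11, Cox14, Sdhaf2 and Tmem70, by 0.05 to 0.08) and 2 fell, Nubpl by 0.08 and Cox19 by 0.04 on the log2 scale. Cycs, which encodes cytochrome c, rose by 0.05 and Dlst, of the oxoglutarate dehydrogenase complex, by 0.04. No mitochondrially encoded subunit passed.

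Between regions the mitochondrially encoded subunits differed in sign from the nuclear ones in DMT and vHipp and shared it in Nacc. In DMT they had a median log2 difference of −0.126, with 11 of 13 lower, where the nuclear members had a median of 0.125. In vHipp 11 of 13 were higher, with a median of 0.205, where the nuclear median was −0.103. In Nacc all 13 were higher, with a median of 0.291, where the nuclear median was 0.046. Whether the lists differ was not tested. Of the other lists, 10 of 13 enzymes of the tricarboxylic acid cycle rose in DMT (median 0.136) and 23 of 43 assembly factors rose there and 14 fell, where 42.7% and 43.7% of all genes did, with the largest values for Atpaf1 (0.76), which assembles the F1 part of the ATP synthase, and Ttc19 (0.62), which acts on complex III. Among the regulators, Esrra, a nuclear receptor of mitochondrial genes, was higher in DMT by 0.72 and Ppargc1a, its coactivator, by 0.07.

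The likeness of a mouse's levels between regions was no larger for the members than for genes at large. Over 38 mice and 5 regions without Nacc, the mean correlation of a member between regions had a median of 0.088 over the 82 members, against 0.142 over 13767 protein-coding genes of at least 1 CPM. It was over 0.4 for 6 members (7.32%) and for 10.2% of those genes. Atp5e, the epsilon subunit of the ATP synthase, had 0.73, Cox6a2 0.626, Ndufb2 0.445, Cox5a 0.429, Cox6c 0.427 and Uqcrh, the hinge protein of complex III, 0.412. Atp5e was also the most variable member with a mean of at least 8 CPM in every region but DMT, with 33.6 to 55.6 CPM in mPFC and 27.4 to 59.5 in vHipp. No condition contrast of Atp5e passed with the regions summed, where the log2 difference of ELA_SAFit2 from ELA_Veh was −0.09 (SE 0.05).

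Cox6a2 in DMT had the largest spread of the members with a mean of at least 8 CPM, with an SD of 0.772 on the log2 scale. Below that level, Cox8b in BLA had one of 0.779. In the NoInteraction set the CPM of Cox6a2 in DMT was 10.9 to 12.3 in Ctrl_Veh, 8.53 to 19.8 in ELA_Veh and 2.64 to 19.3 in ELA_SAFit2. After interaction it was 9.78 to 20.6, 7.97 to 19.3 and 1.14 to 24.1. The 4 lowest DMT libraries, at 1.14 to 3.08 CPM, were all from ELA_SAFit2 mice, 2 in each set, and the other 37 lay at 7.97 to 24.1, but the highest DMT library was from an ELA_SAFit2 mouse too. Over both sets the log2 difference of ELA_SAFit2 from Ctrl_Veh in DMT was −0.18 (SE 0.28, edgeR adjusted p = 0.899). Counted from the lowest of 41, the same 4 mice had ranks 1, 2, 3 and 7 in mPFC, 1, 2, 3 and 6 in ACC, 1, 3, 5 and 10 in vHipp, 1, 4, 7 and 15 in BLA and 2, 4, 5 and 21 in Nacc, where mouse labels are in doubt. Levels in mPFC and DMT correlated at r = 0.80 over the 41 mice.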

How the data were processed

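RNA was measured in bilateral punches of 6 regions from 41 mice by poly(A) selected, stranded paired-end sequencing. The authors deposited estimated counts per gene, made with Salmon. The submitters' processing notes also name STAR, DESeq2 and the build GRCm39 (mm39), with versions not given in the sources used here. Of the deposited values, 12.12% were not whole, and all were rounded before testing. Estimated counts divide reads between near-identical genes, so members with close copies or pseudogenes are uncertain. Gene types came from GENCODE M21 for 52073 identifiers and from RefSeq for 978, and 3640 had none. Both references are of GRCm38, not the authors' build, so coordinates and promoter sequences are from GRCm38 only.

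Tests were limited to protein-coding genes detected in 6 libraries or more whose counts added up to 100 or more. They used edgeR 4.0.16 in R 4.3.3 (quasi-likelihood test, TMM size factors, Benjamini-Hochberg adjustment over all genes tested, threshold 0.05). All 6 groups of condition and set entered 1 model, per region and on counts added over the regions of a mouse. Regions were compared with the mouse as a block, since the labels give the same mouse number for the 6 punches. Over 38 mice and 5 regions, the mean correlation between regions had a median of 0.142 over 13767 genes. Nacc and the mice whose libraries stand apart were left out of it. Contrasts over both sets within regions were fitted in the same models without a design entry of their own. Log2 values of library scores, member spread and permutation tests used a pseudocount of 0.5. Those for the likeness of mice between regions used a smaller one, and the limma fit used a prior count of its own. Single genes were compared by exact permutation or, between sets, by 100000 resamples. P-values treat mice as independent, although litters are unknown. Alternatives were DESeq2 1.42.0, limma 3.58.1, other size factors, no filter, all gene types, each set alone, leaving out Nacc and leaving out each mouse. Leaving out libraries that stand apart, leaving out each mouse within mPFC and ACC, and all gene types within regions were added after the data were seen. The procedures were tested on simulated data with 200 changed genes. At a log2 change of 0.2 in ELA_SAFit2 against Ctrl_Veh, edgeR recovered 4.5% of them with the regions summed and 0.5% in mPFC. At 0.5 it recovered 99.5% and 100%. The simulated spread was the same for all genes and was not fitted to the members, so these shares are not the members' own. Figures used matplotlib 3.10.9.

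The members and lists were chosen with earlier results of these data known. Named genes were core members and isoforms listed by name, the 3 members with the smallest p per contrast over both sets with the regions summed, the 3 with the largest difference called in each region, every member called in a condition contrast, and called genes of the pathway lists. Further genes were named after their values were seen, among them Ndufa10, Atp5e and Ndufb2 in single regions.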

Additional observations from a re-analysis of the deposited data

Results flagged for a closer look

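In 102 groups of 6 or 7 libraries, the highest and lowest values were compared with their nearest neighbours by Dixon's criterion. The following 6 stood apart (5.88% of groups), where chance gives about 1 in 20 if groups are independent. These are not independent, since 1 ACC group gave several of them and the mean deviation of the members includes Cox5a and Ndufb2. The deviations of 0.645 and 0.397 belong to libraries that follow transcript length. The share therefore cannot be set against chance. In ACC after social interaction, 1 Ctrl_Veh library had a mean log2 deviation of the members of 0.645 with the next at 0.0282. The same group held the highest Cox5a, at 162 CPM with the next at 95.7, and the highest Ndufb2, at 54.8 CPM with the next at 35.6. In ACC without interaction, 1 ELA_Veh library had Cox5a at 121 CPM, with the next at 91.4. In DMT after interaction, 1 ELA_SAFit2 library had a mean deviation of 0.397 with the next at −0.0354, and 1 Ctrl_Veh library one of 0.115 with the next at 0.0079. The cause was not tested.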

How the results depend on the processing

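Counts of calls and values of the single members tested under the alternatives kept their direction. Medians over the members did not always: of 581 such medians 19 changed sign, 12 of them without the libraries that stand apart. In DMT after interaction, the median of ELA_SAFit2 against ELA_Veh went from 0.035 to −0.031, and with the regions summed that of ELA_Veh against Ctrl_Veh went from −0.024 to 0.003. With the regions summed, the count of condition calls stayed at 0 under each alternative. Within regions over both sets it was 1 to 2 when each mouse was left out in turn, and after social interaction DESeq2 made 2 calls where edgeR made 0, both for Cox5a in mPFC (adjusted p of 0.0255 against Ctrl_Veh and 0.0324 against the mean of the other groups). For social interaction with the regions summed, DESeq2 called 3 members (Ndufb2, Sdhd and Cox5b), RLE size factors 2 (Ndufb2 and Sdhd), and fits without 1 mouse 1 to 2. Within regions, DESeq2 called 3, among them Ndufv3 in mPFC (−0.06). The fits without libraries that stand apart called 3, among them Atp5g2 in ACC (−0.06), and those without 1 mouse called 0 to 4. The cause was not tested. Ndufb2 in ACC had adjusted p of 0.0573 in edgeR, 0.0351 in DESeq2 and 0.0218 without libraries that stand apart. Between regions 17 calls were made with and 17 without the replicate block, and all 17 were shared. Depth limits the rare isoforms most, since Cox8b outside BLA rests on a few reads per library.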

Other observations

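Across the 41 DMT libraries, the gene with the level most like Cox6a2 among those listed was Eif3c (r = 0.65), on chromosome 7 like Cox6a2 itself. Rusf1 (r = −0.6) and Tgfb1i1 (r = −0.55), also listed, are on chromosome 7 too, and the remaining listed genes are on other chromosomes. In GRCm38, Cox6a2 starts at base 128205435, Tgfb1i1 at 128246812, Rusf1 at 128271379 and Eif3c at 126546455. Within 2 Mb of Cox6a2, 75 genes had a median absolute correlation with it of 0.159, against 0.123 over 11482 genes. These values were looked up after the spread of Cox6a2 between mice was seen.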
